A study of Mus musculus with 10 samples.

Results

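The genes described here are 40 that drive or mark the cell division cycle, measured in the livers of lactating mice fed 1 of 2 diets. They were taken as a fixed list of gene symbols, and each gene was read from the probe set (the group of short probes for 1 transcript) that named it alone and had its highest mean over the 10 arrays. Of the 40 genes, 39 had such a probe set, among 18193 genes named on the array, and Ccnb1 (cyclin B1) was not analysed here. By role, 12 act in DNA replication, 17 in mitosis and 10 in G1 or in the entry into S phase.

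All mice were of the QSi5 strain and were fed from pregnancy to peak lactation, when total RNA of whole liver was taken, with 1 array per mouse. In the high glycaemic index group (HGI, 5 mice) glucose made up 51.4% of the feed's weight, and the feed's gross energy was 15.6 MJ/kg. In the low glycaemic index group (LGI, 5 mice) a starch named Hi-Maze took that share, and gross energy was 16.3 MJ/kg. The labels also give a positive energy balance for every HGI mouse and a negative one for every LGI mouse, so diet and energy balance cannot be told apart. The sources used here state neither age nor litter size. In whole liver, fewer cells of a type and less RNA per cell cannot be told apart either.

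Dividing cells pass from G1, where D cyclins with Cdk4 and then E cyclins with Cdk2 release E2F factors from the retinoblastoma protein, into S phase, where the MCM helicase, PCNA and the enzymes that make deoxynucleotides copy the genome. Mitosis then depends on cyclin A and B with Cdk1, on the Aurora and Polo-like kinases, on the spindle checkpoint and on kinesin motors. Hepatocytes of the adult are mostly at rest and enter this cycle after injury or when the organ grows, and the liver also holds Kupffer, endothelial and blood cells that can divide.

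Many genes of replication are known targets of E2F factors, and many genes of mitosis carry a CHR element (cell cycle genes homology region) next to CCAAT boxes bound by NF-Y. The promoters of the members were therefore searched on both strands in a RefSeq table (build GRCm38.p6) of windows that run from 250 bases before to 50 bases after each annotated start. Windows were found for 31 of the 39 measured genes, 34 windows in all. The motifs were TTTCCCGC, TTTCGCGC, TTTGCCGC and TTTGGCGC for E2F, TTTGAA for the CHR element and CCAAT for NF-Y. Matches to the E2F words on opposite strands can overlap, as at -110 and -106 bases from the start of Mcm6. An E2F word stood in 5 of 12 replication promoters (41.7%), in 1 of 13 mitosis promoters and in 1 of 9 G1 promoters, against 2.26% of all 32851 windows and 2.85% of the 21262 of protein-coding genes. The CHR word stood in 9 of 13 mitosis promoters (69.2%), in 1 of 12 replication promoters and in 0 of 9 G1 promoters, against 17.9% of all windows and 16% of protein-coding ones. CCAAT stood in 76.9% of mitosis, 75% of replication and 33.3% of G1 promoters, against 37.4% of all windows. In these windows E2F words were more frequent in replication genes and the CHR word in mitosis genes; a match is a description of letters, not a bound site.

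**Figure D1:**
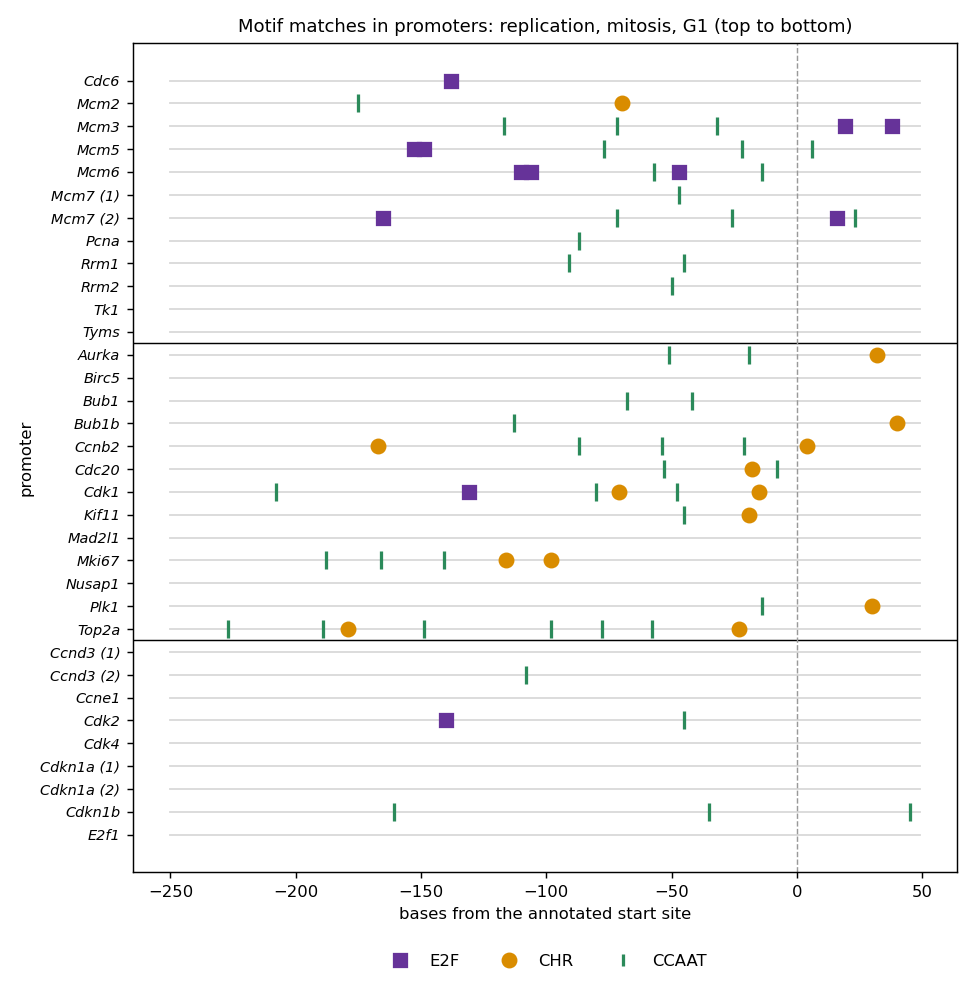
Matches of the E2F words (squares), the CHR word (circles) and CCAAT (bars) in 34 promoter windows of 31 member genes, by distance in bases from the annotated start site (dashed line). Squares lie mostly in the upper block of replication genes (5 of 12 windows) and circles mostly in the middle block of mitosis genes (9 of 13); genes with several windows are numbered.

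The 4 sequences below show this layout in the mitosis genes with the smallest unadjusted p-values between diets, Mki67 and Plk1 with positive differences (HGI minus LGI), Cdk1 and Aurka with negative ones. Each is the 250 bases before the annotated start, 5′ to 3′ on the gene's own strand (GRCm38.p6, from RefSeq), with matches to the E2F words, the CHR word and CCAAT in capitals, and a match to CCAAT on the other strand reads ATTGG. They lie at chr7:135716380-135716629 (Mki67, minus strand), chr7:122159185-122159434 (Plk1, plus strand), chr10:69352913-69353162 (Cdk1, minus strand) and chr2:172370571-172370820 (Aurka, minus strand).
Mki67: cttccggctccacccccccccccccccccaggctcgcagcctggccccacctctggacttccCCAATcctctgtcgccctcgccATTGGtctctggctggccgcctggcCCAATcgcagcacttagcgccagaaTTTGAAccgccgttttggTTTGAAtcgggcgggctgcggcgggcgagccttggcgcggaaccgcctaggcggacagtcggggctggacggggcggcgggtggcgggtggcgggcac
Plk1: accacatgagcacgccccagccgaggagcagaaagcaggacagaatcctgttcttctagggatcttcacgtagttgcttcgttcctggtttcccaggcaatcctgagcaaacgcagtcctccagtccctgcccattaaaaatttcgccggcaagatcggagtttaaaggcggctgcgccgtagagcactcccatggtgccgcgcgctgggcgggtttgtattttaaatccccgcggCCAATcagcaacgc
Cdk1: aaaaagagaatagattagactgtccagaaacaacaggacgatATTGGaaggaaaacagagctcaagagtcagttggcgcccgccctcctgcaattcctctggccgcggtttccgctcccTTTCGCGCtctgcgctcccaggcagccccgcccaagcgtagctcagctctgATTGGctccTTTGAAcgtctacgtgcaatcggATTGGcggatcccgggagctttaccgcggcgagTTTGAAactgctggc
Aurka: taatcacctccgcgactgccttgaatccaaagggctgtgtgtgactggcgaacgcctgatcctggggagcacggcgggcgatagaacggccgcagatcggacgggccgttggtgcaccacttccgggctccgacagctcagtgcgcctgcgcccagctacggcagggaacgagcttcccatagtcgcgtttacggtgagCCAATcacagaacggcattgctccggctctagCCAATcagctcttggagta
Mki67 held 2 CHR words and 3 CCAAT words, and Cdk1 held 2 CHR words, 3 CCAAT words and 1 E2F word. The CHR words of Plk1 and Aurka lie 30 and 32 bases after the start and so outside these stretches, which hold 1 and 2 CCAAT words. These 4 genes, with differences of both signs, all held CHR and CCAAT words, as did most mitosis windows (9 and 10 of 13). A link between these words and the diet differences was not tested.

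The arrays were close to each other, with a lowest correlation of 0.986 between any 2 and medians of 3.91 to 3.97 log2. HGI 1 had the narrowest spread of values (SD 2.16) and LGI 4 correlated least with the other LGI arrays (mean 0.988). The 7 hepatocyte markers had means from 11.67 to 14.69 log2. Of 6 granulocyte markers, S100a8 stood at 8.92 in LGI 4 and between 3.88 and 6.28 in the other 9 arrays. Prtn3 (9.94) and S100a9 (9.31) were also highest in LGI 4. The rest of the list did not set LGI 4 apart: Elane was highest in LGI 5 (5.55, against 5.49 in LGI 4). Mpo stood at 4.29 in LGI 4 and 4.19 in HGI 1, and Ltf at 3.70 in LGI 4 and 3.76 in LGI 5. The deposited values carry no detection calls. As a guide, 15 genes not known for liver expression had means from 2.37 to 7.23 log2 with a median of 3.85, so a value in this range need not show transcript.

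Few of these genes gave bright signals. Of the 39, 12 had a mean below the median of every array, against 32.8% of all genes, and 6 had a mean of at least 6 log2, against 39.4%. Of the 17 mitosis genes, 8 lay below the array medians and 0 reached 6 log2. Of the 12 replication genes 3 lay below and 3 reached 6, and of the 10 G1 genes 1 lay below and 3 reached 6.

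Between the diets, 0 of the 39 genes passed an adjusted p of 0.05 (limma, Benjamini-Hochberg over all 45037 probe sets, of which 29 or 0.0644% passed; 0.0824% of the 18193 genes), and the smallest adjusted p was 0.270, for Mki67. At an unadjusted p under 0.05 there were 7 of 39 (17.9%), 4 higher and 3 lower in HGI, against 9.3% of all genes read the same way (3.07% higher and 6.23% lower). The 4 higher were Cdkn1a, Mki67, Plk1 and Tyms, and the 3 lower were Ccnd1, Cdk1 and Aurka. An unmoderated two-sample test also passed 0 members after adjustment, and 5 at an unadjusted p under 0.05, the 7 without Ccnd1 and Cdkn1a. Without HGI 2, Mki67 passed (difference 0.87, adjusted p = 0.0172); without any other array 0 members passed.

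The median difference (HGI minus LGI) was -0.02 log2 over the 12 replication genes, -0.08 over the 17 mitosis genes and -0.06 over the 10 G1 genes, against -0.03 over all 18193 genes. These signs were not stable: the mitosis median was 0.02 without probe sets dimmer than the array medians, the replication median 0.02 without HGI 2, 0.02 without HGI 3 0.03 without LGI 2 and 0.03 without both HGI 1 and LGI 4, and the G1 median 0.01 without HGI 1 and 0.00 without HGI 2. Below 0 lay 24 of the 39 differences, against 58.2% of all genes. Replication had 4 differences above 0 and 8 below, mitosis 7 and 10, and G1 4 and 6. The 3 medians differed by less than their spread between mice: the SD of such a median between mice of a diet was 0.11 log2 for replication and for mitosis and 0.08 for G1. Of the 39 genes 35 differed by less than 0.5 log2, and for 34 the 95% interval of the difference lay within 1 log2 of 0 on either side.

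**Figure D2:**
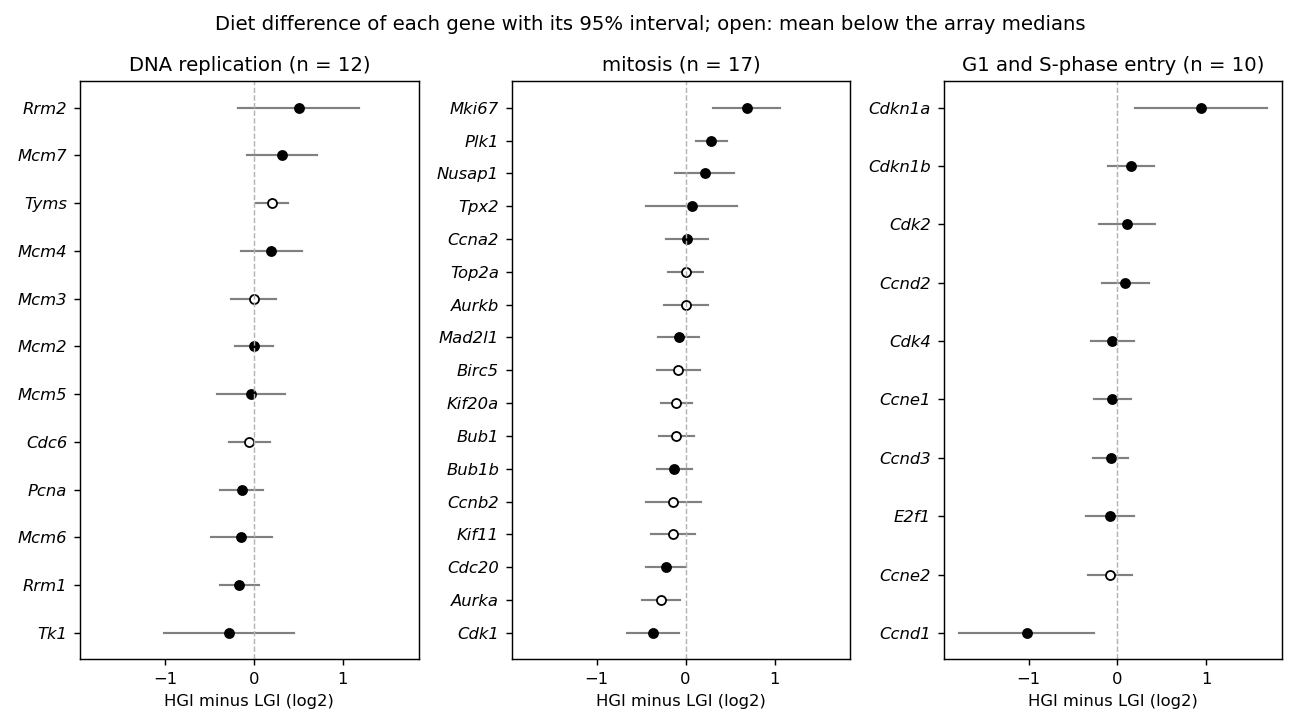
HGI minus LGI difference in log2 expression (points) with its 95% interval from limma (lines) for each of the 39 genes, by role; open points mark the 12 dim genes, with means under all array medians. Most intervals cross 0, and Cdkn1a (0.94) and Ccnd1 (-1.02) lie at opposite ends of the G1 group.

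Among the G1 genes, Ccnd1, cyclin D1, which binds Cdk4 and Cdk6 and links growth signals to the cycle, stood apart. It measured 6.81, 7.80, 6.48, 8.56 and 7.41 log2 in HGI 1 to 5 and 8.62, 8.77, 8.97, 7.54 and 8.28 in LGI 1 to 5. All HGI mice but HGI 4 lay under all LGI mice but LGI 4, and the groups overlapped through these 2 arrays. The means were 7.41 ± 0.82 and 8.44 ± 0.56 (SD, n = 5 each), a difference of -1.02 (2.03-fold lower in HGI; 95% interval -1.78 to -0.26; limma unadjusted p = 0.0122, adjusted p = 0.499). The other 2 Ccnd1 probe sets gave -1.10 and -0.95 (limma adjusted p = 0.461 and 0.50), so its 3 probe sets gave values of similar size. Of all 18193 genes, 0.291% differed by 1 log2 or more in either direction.

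The other D cyclins did not show a difference of that size. Ccnd3, cyclin D3, measured 7.49, 7.71, 7.90, 7.79 and 7.62 log2 in HGI 1 to 5 and 7.91, 7.79, 7.82, 7.64 and 7.72 in LGI 1 to 5, and its difference was -0.08 (95% interval -0.28 to 0.12). Ccnd2, cyclin D2, differed by 0.09 (95% interval -0.17 to 0.35). Cdk4, their shared kinase, measured 6.80, 7.31, 7.46, 7.18 and 7.36 in HGI 1 to 5 and 7.24, 7.26, 7.19, 7.34 and 7.37 in LGI 1 to 5, with a difference of -0.06 (95% interval -0.30 to 0.19). These 3 intervals lie above the Ccnd1 value of -1.02, but the interval of Ccnd1 itself (-1.78 to -0.26) overlaps those of Ccnd3 and Cdk4. The differences between genes were not tested.

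Cdkn1a, the inhibitor of cyclin-dependent kinases that p53 and stress signals induce, gave the largest positive difference of the 39. It measured 5.89, 6.92, 5.68, 5.57 and 7.23 log2 in HGI 1 to 5 and 5.52, 5.08, 5.09, 6.23 and 4.66 in LGI 1 to 5. HGI 2 and HGI 5 were the highest, and LGI 4 lay above the remaining 3 HGI mice. The means were 6.26 ± 0.76 and 5.32 ± 0.60 (SD, n = 5 each), a difference of 0.94 (95% interval 0.20 to 1.68; limma unadjusted p = 0.0165, adjusted p = 0.529). Both means lay within the range of the genes not known for liver expression, as did those of Cdkn1c, and no fold is given. Its dimmer probe set gave 0.18 (limma adjusted p = 0.848), and the mean of both 0.56. LGI 4 was the lowest LGI mouse in Ccnd1 and the highest in Cdkn1a, and HGI 4 was the highest HGI mouse in Ccnd1 and the lowest in Cdkn1a. Other mice went the other way: HGI 2 was high in both (7.80 in Ccnd1, 6.92 in Cdkn1a) and HGI 3 low in both (6.48 and 5.68). A relation between the 2 genes across mice was not tested. Cdkn1b, the related inhibitor of G1 kinases, measured 5.06, 5.39, 5.48, 5.17 and 5.64 in HGI 1 to 5 and 5.05, 5.34, 4.99, 5.38 and 5.24 in LGI 1 to 5, with a difference of 0.15 (95% interval -0.11 to 0.41). Its groups overlapped throughout.

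The genes of the G1 to S transition lay near 0. Ccne1 and Ccne2, the E cyclins, differed by -0.06 and -0.08, Cdk2, their kinase, by 0.11, and E2f1, a transcription factor of S-phase genes, by -0.08. Ccne2 lay below the array medians.

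Of the replication genes, 0 of those with a mean of at least 6 log2 (Pcna, Mcm7 and Tk1) had an unadjusted p under 0.05. Pcna, the sliding clamp of DNA polymerases, measured 8.34, 8.64, 8.80, 8.80 and 8.63 log2 in HGI 1 to 5 and 8.79, 9.005, 8.74, 8.49 and 8.87 in LGI 1 to 5. The groups overlapped, and the difference was -0.13 (95% interval -0.38 to 0.11; limma adjusted p = 0.851). Mcm7, a subunit of the helicase that opens the DNA, measured 6.72, 7.43, 7.26, 7.37 and 7.62 in HGI 1 to 5 and 6.44, 7.32, 6.98, 7.25 and 6.81 in LGI 1 to 5. HGI 1 and LGI 1 were the lowest of their groups, and the difference was 0.32 (95% interval -0.08 to 0.71; limma adjusted p = 0.748). A second Mcm7 probe set gave 0.25 (limma unadjusted p = 0.0421, adjusted p = 0.646). The other 5 helicase subunits differed by -0.14 (Mcm6) to 0.20 (Mcm4), with Mcm2, Mcm3 and Mcm5 within 0.04 of 0.

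The enzymes of deoxynucleotide supply had differences of both signs. Tk1, thymidine kinase of the salvage pathway, measured 5.97, 6.61, 8.02, 6.92 and 6.59 log2 in HGI 1 to 5 and 6.93, 7.32, 7.21, 6.22 and 7.82 in LGI 1 to 5. It varied widely within each diet (SD 0.75 and 0.59) and differed by -0.28 between them (95% interval -1.01 to 0.46). Rrm2, the small subunit of ribonucleotide reductase that limits deoxynucleotide synthesis, differed by 0.51 (95% interval -0.17 to 1.19; limma adjusted p = 0.770), and ranged from 4.69 to 6.39 in HGI and from 4.11 to 5.62 in LGI. A second Rrm2 probe set gave 0.43 (limma unadjusted p = 0.0179, adjusted p = 0.535) and the remaining one -0.05. Rrm1, the large subunit, differed by -0.16 (95% interval -0.38 to 0.06).

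Tyms, thymidylate synthase, measured 2.75, 2.71, 2.87, 2.60 and 2.82 log2 in HGI 1 to 5 and 2.37, 2.59, 2.55, 2.52 and 2.69 in LGI 1 to 5. All values lay below the array medians, so the difference of 0.21 (limma unadjusted p = 0.0290, adjusted p = 0.589) was between dim signals and no fold is given. Its other 3 probe sets gave 0.03, 0.05 and -0.06. Without HGI 3, HGI 5, LGI 1 or LGI 4, each left out alone, its unadjusted p was above 0.05. Cdc6, which loads the helicase at origins, also lay below the array medians and differed by -0.05.

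**Figure D3:**
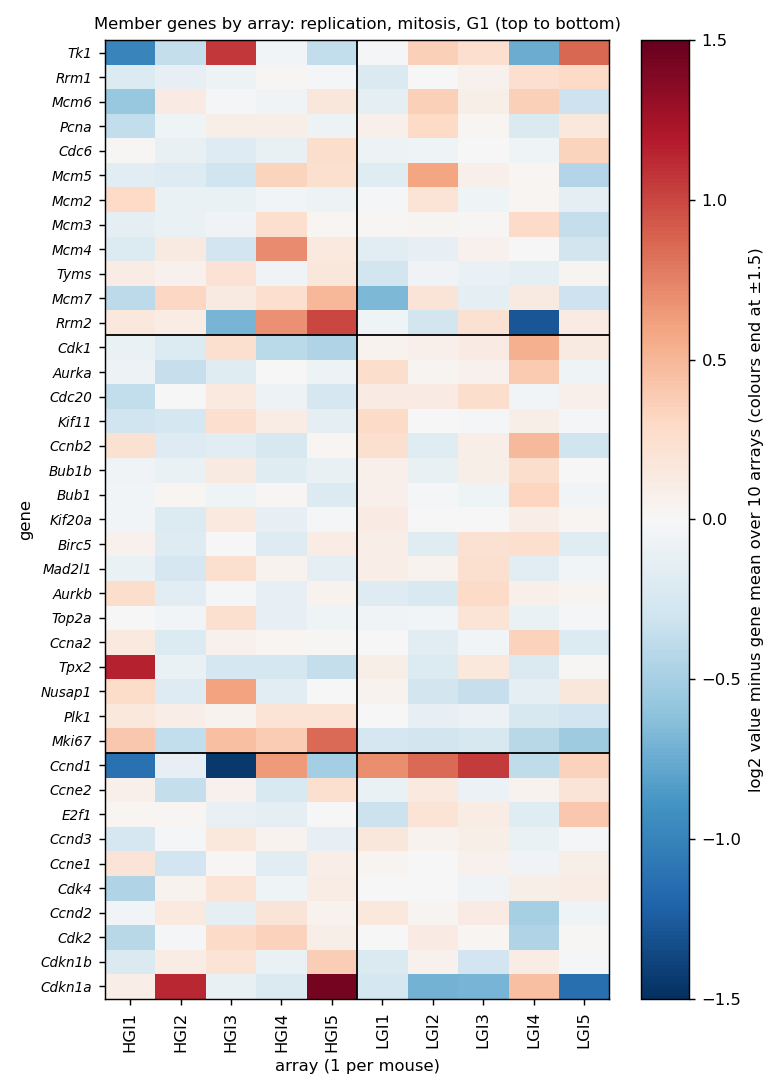
Log2 value of each of the 39 genes in each array minus that gene's mean over the 10 arrays (red above, blue below; colours end at 1.5 log2), with replication, mitosis and G1 genes in blocks from top to bottom and HGI arrays left of the vertical line. Ccnd1, Cdkn1a, Tk1 and Rrm2 show the widest swings within and between diets, and no block is of 1 colour in either diet.

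Of the mitosis genes, Mki67, which encodes the Ki-67 protein that coats mitotic chromosomes and marks cycling cells, had the smallest p of the 39. It measured 5.33, 4.55, 5.38, 5.31 and 5.77 log2 in HGI 1 to 5 and 4.68, 4.65, 4.68, 4.50 and 4.39 in LGI 1 to 5. All HGI mice except HGI 2 lay above all LGI mice, and HGI 2 lay among the LGI mice. The means were 5.27 ± 0.44 and 4.58 ± 0.13 (SD, n = 5 each), a difference of 0.69 (95% interval 0.31 to 1.06; limma unadjusted p = 0.00158, adjusted p = 0.270). It had 1 probe set, and both means lay within the range of the genes not known for liver expression, as did those of Cdk1, so no fold is given.

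Plk1, Polo-like kinase 1 of centrosomes, spindle and cytokinesis, was the only member whose groups did not overlap (1 of 39, or 2.56%, against 2.17% of all genes, and 0.5% higher in HGI). It measured 4.64, 4.58, 4.54, 4.69 and 4.69 log2 in HGI 1 to 5 and 4.49, 4.36, 4.40, 4.24 and 4.20 in LGI 1 to 5. Every HGI mouse lay above every LGI mouse, with LGI 1 and HGI 3 the nearest to each other. The difference was 0.29 ± 0.08 (SE, n = 5 each; 95% interval 0.12 to 0.46; limma unadjusted p = 0.00295, adjusted p = 0.332), at levels within the range of the genes not known for liver expression.

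Cdk1, the kinase that drives entry into mitosis, and Aurka, Aurora kinase A of the spindle poles, lay the other way. Cdk1 measured 5.58, 5.48, 5.92, 5.27 and 5.23 log2 in HGI 1 to 5 and 5.73, 5.76, 5.80, 6.21 and 5.81 in LGI 1 to 5. HGI 3 lay among the LGI mice and the other 4 HGI mice below all of them, and the difference was -0.37 (95% interval -0.66 to -0.08; limma unadjusted p = 0.0176, adjusted p = 0.534). Without HGI 5 its unadjusted p was 0.0504. LGI 4 was the highest mouse, and without it the difference was -0.28 (limma unadjusted p = 0.0479).

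Aurka measured 3.47, 3.21, 3.37, 3.55 and 3.47 log2 in HGI 1 to 5 and 3.82, 3.60, 3.61, 3.94 and 3.49 in LGI 1 to 5. Its mean lay below the array medians, and the groups overlapped only through HGI 4 and LGI 5. The difference was -0.28 (95% interval -0.50 to -0.06; limma unadjusted p = 0.0170, adjusted p = 0.532). Its other probe set gave -0.01 (limma adjusted p = 0.992). LGI 4 was again the highest mouse, and without it the difference was -0.21 (limma unadjusted p = 0.0474).

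**Figure D4:**
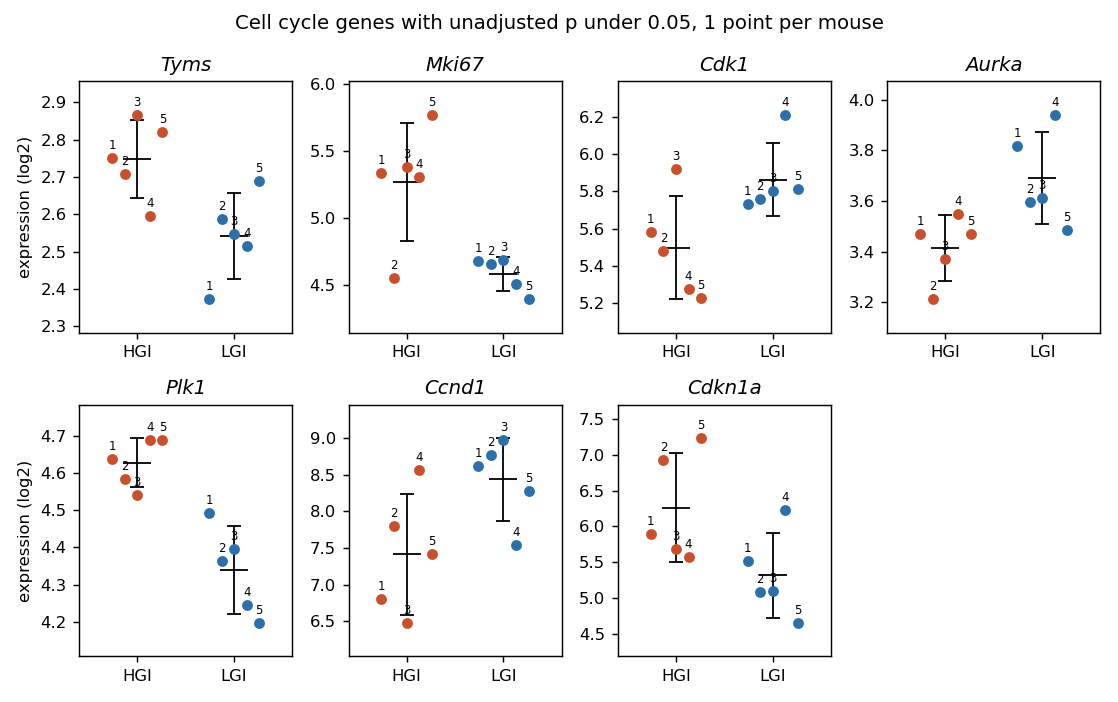
Log2 expression in each mouse (points, numbered as in the labels; red HGI, blue LGI) of the 7 genes with an unadjusted p under 0.05, with the group mean and SD (n = 5) in black; each panel has its own axis, which does not start at 0. The groups are apart only for Plk1, and Mki67 is high in 4 of 5 HGI mice.

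The activator of the anaphase-promoting complex, Cdc20, measured 5.42, 5.79, 5.94, 5.72 and 5.54 log2 in HGI 1 to 5 and 5.91, 5.92, 6.06, 5.75 and 5.87 in LGI 1 to 5. It differed by -0.22 (95% interval -0.44 to 0.00; limma unadjusted p = 0.0529, adjusted p = 0.671), and its other probe sets gave -0.27 (limma unadjusted p = 0.0162, adjusted p = 0.525) and -0.09. The spindle checkpoint gene Mad2l1 measured 4.90, 4.74, 5.23, 5.04 and 4.86 in HGI 1 to 5 and 5.09, 5.05, 5.24, 4.83 and 4.95 in LGI 1 to 5, a difference of -0.08 (95% interval -0.30 to 0.15). The checkpoint kinases Bub1 and Bub1b differed by -0.11 and -0.13.

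Top2a, topoisomerase II alpha, which untangles sister chromatids and is commonly read together with Ki-67 as a mark of proliferation, had nearly equal means in the diets. It measured 3.88, 3.83, 4.10, 3.74 and 3.81 log2 in HGI 1 to 5 and 3.81, 3.83, 4.07, 3.77 and 3.85 in LGI 1 to 5. The difference was 0.00 (95% interval -0.19 to 0.20) at a mean below the array medians, and its other probe sets gave 0.15 and -0.30 (limma adjusted p = 0.836 and 0.795). The cyclins of G2 and mitosis, Ccna2 and Ccnb2, differed by 0.02 and -0.14. The remaining mitosis genes were Birc5 (survivin) and Aurkb of the chromosomal passenger complex at -0.08 and 0.00, the kinesins Kif11 and Kif20a at -0.14 and -0.11, and the spindle proteins Nusap1 and Tpx2 at 0.21 and 0.07. None of these had an unadjusted p under 0.05.

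Read over all 93 single-symbol probe sets of the 39 genes, 12 had an unadjusted p under 0.05 (against 7.54% of all probe sets) and 0 passed after adjustment. Beside the 7 probe sets already counted these were the other 2 of Ccnd1 and 1 each of Cdc20, Rrm2 and Mcm7.

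The rest of the pathway was read from 142 further genes, listed with earlier results of these data known. Of these, 0 passed an adjusted p of 0.05 (limma) and 16 (11.3%) had an unadjusted p under 0.05, 7 higher and 9 lower. The share of all genes was 9.3% (3.07% higher and 6.23% lower). The groups did not overlap in 3 of the 142, against 2.17% of all genes. Of 43 further replication genes 0 were higher and 4 lower at an unadjusted p under 0.05, with a median difference of -0.03. The 3 of smallest p were Mcm10, a replication initiation factor (-0.52; limma adjusted p = 0.433), Dut, the dUTPase (-0.27; limma adjusted p = 0.554) and Gins1, a subunit of the replicative helicase complex (-0.34; limma adjusted p = 0.578). Of 58 further mitosis genes 2 were higher and 3 lower on that basis, with a median of -0.01. They were led by Stmn1, stathmin, which destabilizes microtubules (-0.53; limma adjusted p = 0.154; groups apart), Ncapg, a condensin subunit (-0.43; limma adjusted p = 0.379) and Ube2c, the ubiquitin-conjugating enzyme of the anaphase-promoting complex (0.72; limma adjusted p = 0.432).

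Of 41 further G1 and checkpoint genes 5 were higher (12.2%) and 2 lower (4.88%) at an unadjusted p under 0.05, with a median of -0.02. Of all genes, 3.07% were higher and 6.23% lower on that basis. The groups did not overlap in 2 of the 41, against 2.17% of all genes. Cdkn1c, the third inhibitor of the Cdkn1a family, measured 5.07, 5.33, 5.58, 5.03 and 5.14 log2 in HGI 1 to 5 and 5.77, 5.79, 5.99, 5.81 and 5.87 in LGI 1 to 5. Every HGI mouse lay below every LGI mouse, and the difference was -0.61 (95% interval -0.84 to -0.38; limma adjusted p = 0.0666). Cdkn1c passed after quantile normalization again (limma adjusted p = 0.0422) and without HGI 3 (limma adjusted p = 0.0208). It also passed with 1 probe set per gene in the fit (limma adjusted p = 0.0463) and with the mean of each gene's probe sets (limma adjusted p = 0.0489). Those last fits held the same difference of -0.61 and adjusted over fewer tests. Cdkn1c did not pass with median centring, a variance trend, array weights, a replicate block or the unmoderated test, nor without any other single array. Thus Cdkn1a and Cdkn1c had differences of opposite sign, the former with overlapping groups and the latter without. Next were Cdc25a, the phosphatase that activates Cdk2 (-0.36; limma adjusted p = 0.183; groups apart), and E2f2, an E2F factor (0.56; limma adjusted p = 0.509).

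Markers of other cells were compared in the same way, and of 56 in 9 cell type lists, hepatocytes included, 0 passed an adjusted p of 0.05 (limma), with 5 higher and 3 lower at an unadjusted p under 0.05, against 3.07% and 6.23% of all genes. Of 7 measured erythroid markers 6 had a difference (HGI minus LGI) above 0, with Hba-a1 and Rhag below the array medians. Their summed signal (linear scale) ranged from 1550 to 3843 in HGI and from 1035 to 2275 in LGI. These sums mostly follow Tfrc, the brightest of the 7 (mean 10.44 log2, against 8.60 for Alas2, the next). Tfrc differed by only 0.26 (limma adjusted p = 0.898), so the sums are not a measure of red cell content. Slc4a1, the anion exchanger of red cells, measured 6.94, 6.28, 7.89, 6.28 and 7.90 log2 in HGI 1 to 5 and 5.98, 4.08, 4.75, 4.38 and 4.86 in LGI 1 to 5. Every HGI mouse lay above every LGI mouse, with a difference of 2.25 (limma adjusted p = 0.0625). Alas2, the erythroid enzyme of haem synthesis, differed by 1.34 (limma adjusted p = 0.262), and the other 5 by -0.06 (Rhag) to 0.26 (Tfrc). All 8 Kupffer cell markers had differences above 0, with sums of 1692 to 2950 in HGI and 1426 to 2197 in LGI. So did all 8 endothelial markers, with sums of 973 to 1467 and 842 to 1229. Bright genes such as Csf1r and Clec4g weigh most here, so these sums do not measure cell content either. Stab2, an endothelial marker, differed by 0.76 (limma unadjusted p = 0.000816, adjusted p = 0.217), with overlapping groups. Its p was smaller than that of Alas2. Stab1, also endothelial, differed by 0.25 (limma unadjusted p = 0.0385, adjusted p = 0.631), and the Kupffer marker Vsig4 by 0.46 (limma unadjusted p = 0.0161, adjusted p = 0.525). The stellate, cholangiocyte, B cell, T and NK cell and granulocyte lists had median differences of 0.00, 0.02, 0.06, 0.00 and -0.10.

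The same pair of mice was highest in some of the genes above and in 2 of the 7 erythroid markers. How often this pair was highest over all genes was not counted, so no share can be set beside these genes. Alas2 was highest in HGI 5 (9.99) and HGI 3 (9.59), the pair that was also highest in Slc4a1 and in Mki67. In Mki67, however, HGI 1 (5.33) and HGI 4 (5.31) came close to HGI 3 (5.38). Ube2c (5.40 and 5.39 log2 in HGI 3 and HGI 5, against 3.81 to 4.79 in the others), E2f2 (5.73 and 6.27, against 4.59 to 5.44) and Cdc25b, a phosphatase that activates Cdk1 (4.76 and 4.61, against 3.41 to 3.94), were highest in these 2 mice as well. The mean of Cdc25b (3.87) lay below the array medians. Those of Ube2c (4.54) and Slc4a1 (5.93) lay within the range of the genes not known for liver expression. The other 5 erythroid markers had other mice on top: HGI 5 and HGI 4 in Tfrc, HGI 4 and LGI 3 in Epor, LGI 2 and HGI 3 in Klf1, HGI 4 and LGI 5 in Hba-a1, and HGI 1 and LGI 1 in Rhag. Of these, Hba-a1 and Rhag lay below the array medians. Epor (mean 5.55) and Klf1 (6.41) lay within the range of the genes not known for liver expression. The order of mice in these genes other than Tfrc therefore says little. LGI 1 was the highest LGI mouse in Slc4a1 (5.98) and in Plk1 (4.49), but not in Mki67 (4.68, against 4.68 in LGI 3). Cdc25b and the 2 erythroid genes shown were picked after the values were seen, and the part of other cell types in the differences was not tested.

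**Figure D5:**
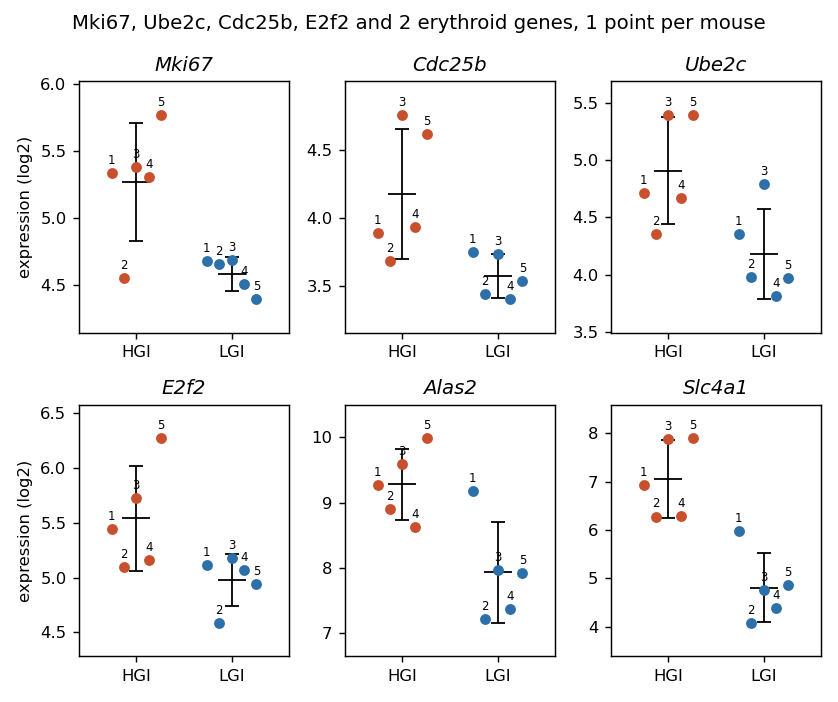
Log2 expression in each mouse (points, numbered as in the labels; red HGI, blue LGI) of Mki67, Cdc25b, Ube2c and E2f2 and of Alas2 and Slc4a1, 2 of the 7 measured erythroid genes, with the group mean and SD (n = 5) in black; each panel has its own axis, which does not start at 0. HGI 3 and HGI 5 are the highest 2 mice in each panel. Cdc25b and the 2 erythroid genes were picked after the values were seen, and Cdc25b is dim.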

How the data were processed

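Liver RNA of 10 mice, 5 per diet, was read on Affymetrix arrays. The authors deposited log2 values per probe set; per the submitters' processing notes, RMA (background correction, quantile normalization and probe summary) and R 2.6.1 were used. RMA can understate differences of dim genes. The table held 45101 probe sets, of which 64 controls were left out. Symbols came from the platform annotation: 34945 probe sets had 1 symbol, 932 several and 9160 none, and updating through RefSeq gene IDs changed 0 symbols.

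HGI was compared with LGI by limma 3.58.1 in R 4.3.3 (lmFit, eBayes, no covariates), with adjustment over all probe sets; intervals are 95%. The procedure was tested on simulated data, in bright probe sets only. The number of arrays limits the precision.

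The members and gene lists were chosen with earlier results of these data known. Values of every array are given for members with an unadjusted p under 0.05, for the 3 of highest mean in each role and for Mki67, Top2a, Pcna, Ccnd1, Cdkn1a and Cdkn1b; of the further genes the 3 of smallest p per list are named. Alternatives were filters on dim probe sets, other normalizations, a variance trend, array weights, a replicate block, 1 probe set or the mean of all probe sets per gene, an unmoderated test and leaving out arrays.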

Additional observations from a re-analysis of the deposited data

Results flagged for a closer look

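In 7 of the 96 groups of 5 mice examined (39 member genes and 9 further named genes in each diet), 1 mouse lay far from the other 4 of its diet; chance gives about 1 in 20 groups. LGI 4 was highest in Cdk1 (6.21 log2, against 5.73 to 5.81) and lowest in Cdk2 (5.43, against 5.89 to 6.01). HGI 1 was highest in Mcm2 (5.71, against 5.31 to 5.37) and in Tpx2 (5.84, against 4.33 to 4.59). LGI 5 was highest in Cdc6 (2.71, against 2.31 to 2.39) and LGI 3 in Top2a (4.07, against 3.77 to 3.85), both dim. HGI 5 was lowest in Cdc25a (5.37, against 5.54 to 5.57). Over the 39 member genes LGI 4 was the highest array in 9, against 0 to 6 for each other array. These included the mitosis genes Cdk1, Aurka, Ccnb2, Ccna2, Birc5, Bub1 and Bub1b. Without LGI 4 the mitosis median difference was -0.03, against -0.08 with all arrays.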

How the results depend on the processing

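The count of probe sets past the threshold (29) was 63 after quantile normalization again, 17 after median centring, 64 with array weights, 1 by the unmoderated test, 58 without both HGI 1 and LGI 4 (added after seeing the data) and 5 to 49 without single arrays. Members past the threshold stayed at 0 except without HGI 2 (range 0 to 1 without single arrays). Members at an unadjusted p under 0.05 (7) were 1 of the 6 left by a filter for a mean of at least 6 log2 (Ccnd1), and 5 to 8 without single arrays. Further genes past the threshold (0) were 1 after quantile normalization again, 1 with 1 probe set per gene and 0 to 1 without single arrays. The replication median was -0.13 over the 3 genes with a mean of at least 6 log2, and no mitosis gene was left there. The differences of the 7 members kept their sign under all alternatives run for them. The 7 were picked by their p in the main fit and a replicate block cannot change a difference, so the kept signs are weak support. With the mean of all probe sets, the limma unadjusted p was 0.324 for Tyms and 0.0832 for Aurka. Samples that share a number across diets did not pair (correlations of deviations -0.13 to 0.04); with a replicate block 33 probe sets and 0 members passed, and 9 members had an unadjusted p under 0.05. Dim signal limits all 17 mitosis genes: 8 lay below the array medians, and the brightest had a mean of 5.79 log2. That mean is within the range of the genes not known for liver expression.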
